A study of Mus musculus with 2 samples.

Results

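CpG-poor promoter peaks are the places where the ETS-family transcription factor ELF1 was found near transcript starts whose surrounding sequence holds few CpG dinucleotides. No annotation of CpG islands was used. They were taken from the peak list on the mm9 genome build. A peak was a member when its summit lay within 1 kb of a GENCODE M1 protein-coding transcript start and the sequence 500 bp to each side of the nearest start had a CpG observed/expected ratio below 0.4. This ratio is the number of CpG dinucleotides divided by the number that the C and G content alone would give. Of 18804 peaks, 8493 (45.2%) were promoter peaks, and 777 of these were CpG-poor, 9.15% of promoter peaks and 4.13% of all peaks. The other 7716 promoter peaks, at a ratio of 0.4 or more, are called CpG-rich here. The rule used position and sequence only, not the ELF1 signal.

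The data were ELF1 ChIP-seq peak lists from CH12.LX, an immortalized B-cell lymphoma line of mouse strain B10.H-2aH-4bp/Wts. In ChIP-seq an antibody, here against ELF1, pulls down a chromatin protein with the DNA it sits on, and that DNA is sequenced. There was 1 group of 2 biological replicates per the labels, both of this 1 line, with no treatment and no second condition. Comparisons are therefore between classes of promoters, and the replicates show which members were seen in both.

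Most vertebrate promoters of widely used genes sit in CpG islands, stretches that keep many CpG dinucleotides and are usually free of DNA methylation. CpG-poor promoters, in contrast, are often those of genes used in few cell types, including many leukocyte genes, and rely more on sequence-specific factors. ETS factors bind around a GGAA core and differ in the bases they accept before it: ELF1 and many relatives bind CCGGAAGT in vitro, and PU.1, the ETS factor of myeloid and B cells, favours GAGGAAGT. The form CCGGAAGT contains a CpG, and the forms with A before GGAAGT do not.

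The sequences at the strongest peaks show how the ETS word looks at CpG-poor promoters of immune genes. Given first are 8 of the strongest CpG-poor peaks of the immune gene lists described below with GGAAGT within 50 bp of the summit, as 30 bases read on the strand that carries the word. Capitals mark GGAAGT.
Hcls1, chr16:36934999-36935028, + strand: actcaaacttcaGGAAGTagctgtgaggac
Dock2, chr11:34596733-34596762, - strand: caaactgggggcGGAAGTggtggctggggg
Myo1g, chr11:6420944-6420973, + strand: ttcagtaaagtaGGAAGTgggttctgcccg
Inpp5d, chr1:89516907-89516936, + strand: gtgcctgaaacaGGAAGTcagtcagttaag
Pycard, chr7:135137243-135137272, + strand: ccgccaagaccaGGAAGTcagctgcttagg
Cd37, chr7:52494778-52494807, + strand: atatccggtggaGGAAGTgaacctcagatg
Laptm5, chr4:130469156-130469185, + strand: tgagggcaaggcGGAAGTgaggcaggcagc
Cd48, chr1:173612116-173612145, - strand: aaacccaaaaccGGAAGTcgtatgaggttt
Next are 2 of the strongest such peaks at genes outside those lists.
Zfp458, chr13:67370037-67370066, + strand: aagaacgaacccGGAAGTtcaatactgaca
Ccdc88b, chr19:6932680-6932709, + strand: ctgagaggaagaGGAAGTccccggctgggg
For comparison, the 5 strongest CpG-rich peaks with the word were these.
Fam172a, chr13:77847960-77847989, + strand: ccctgcagacccGGAAGTgcaatcgaactt
Edem2, chr2:155555189-155555218, - strand: gctttgtagtcaGGAAGTgagaggcttctt
Gtf2b, chr3:142428055-142428084, + strand: cggagacaaccaGGAAGTacacagcccgcg
D19Wsu162e, chr19:46673320-46673349, - strand: gcagagagtggcGGAAGTaacaggagctag
Slc38a10, chr11:120012617-120012646, - strand: ggctccgaaggcGGAAGTttgggtgccgga
All coordinates and sequences are of build mm9, 1-based. In 6 of the 10 CpG-poor sequences an A stood before GGAAGT, against 2 of the 5 CpG-rich ones. A C before GGAAGT makes a CpG, so this contrast is tied to the rule that chose the class. The sequences of Myo1g, Inpp5d, Pycard, Laptm5, Cd48, Ccdc88b, Fam172a, Edem2 and Slc38a10 overlap an annotated untranslated region of some transcript.

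CpG-poor promoters seldom carried ELF1. Of 8186 protein-coding genes whose annotated starts were all below a ratio of 0.4, 476 (5.81%, exact binomial 95% interval 5.32 to 6.34%) had a summit within 1 kb of a start. Genes with such a summit are called bound, also where the summit was nearer to a start of another gene. Among 10345 genes whose starts were all at 0.4 or more, 5560 did (53.7%, 52.8 to 54.7%). The odds ratio was 0.0531, and the two-sided Fisher's exact test gave a p below 1e-300. Of the 3841 genes with starts of both kinds, 2036 (53%) had a summit, and over all 22372 protein-coding genes the share was 36.1%. Genes named as olfactory, vomeronasal or trace amine receptors made up 1438 of the CpG-poor genes, and 1 of them was bound. Without them the share was 475 of 6748 CpG-poor genes (7.04%).

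**Figure D1:**
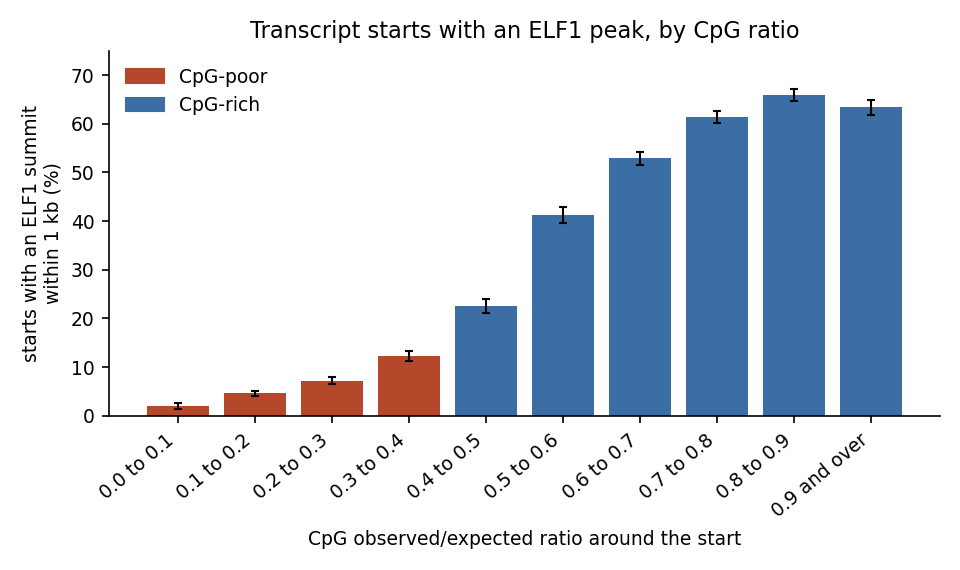
Share of unique protein-coding transcript starts (vertical axis, %) with an ELF1 summit within 1 kb, in bins of the CpG observed/expected ratio (horizontal axis); error bars are exact binomial 95% intervals, which cover counting error only. The share was 1.91% in the lowest bin and 12.3% in the highest CpG-poor bin (0.3 to 0.4), and reached 65.9% at 0.8 to 0.9.

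The share of starts with a summit was higher in each successive bin up to 0.9, on both sides of the 0.4 threshold. It was 1.91% of 2404 starts below 0.1, 4.65% of 6543 at 0.1 to 0.2, 7.204% of 5858 at 0.2 to 0.3 and 12.3% of 3935 at 0.3 to 0.4. In the first CpG-rich bin, 0.4 to 0.5, it was 22.5% of 3043 starts. Just inside the threshold stood the peaks of Zfp759 (ratio 0.3995, signal 282), Ggta1 (0.3995, signal 124) and Trpt1 (0.3998, signal 105). Just outside it stood those of Cxcl10 (0.4006, signal 43.2), Srrm3 (0.4007, signal 40.3) and Osbpl5 (0.4008, signal 47.6). Within the class the ratio had a median of 0.262 and ranged from 0.019 to just under the threshold, and the GC content around the start had a median of 51.1%, against 59.8% at CpG-rich peaks.

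CpG-poor peaks were weaker. The signal is the peak's value in the deposited list, whose scale is not given, so that only ranks within the list are compared. Its median was 70.9 at CpG-poor peaks (quartiles 49.8 and 125, highest 1852) and 118 at CpG-rich peaks (quartiles 60.8 and 278, highest 3176). Of the CpG-poor peaks 217 of 777 (27.9%, 24.8 to 31.2%) lay above the median of all promoter peaks, against 4029 of 7716 CpG-rich peaks (52.2%, 51.1 to 53.3%), with an odds ratio of 0.355 and p = 4.60e-39 by the two-sided Fisher's exact test. Only 12 CpG-poor peaks (1.54%) were in the strongest 10% of promoter peaks, against 838 CpG-rich peaks (10.9%). Neighbouring peaks and peaks of the same gene are not independent, so this p-value and those that follow are smaller than they should be, by how much is not known.

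**Figure D2:**
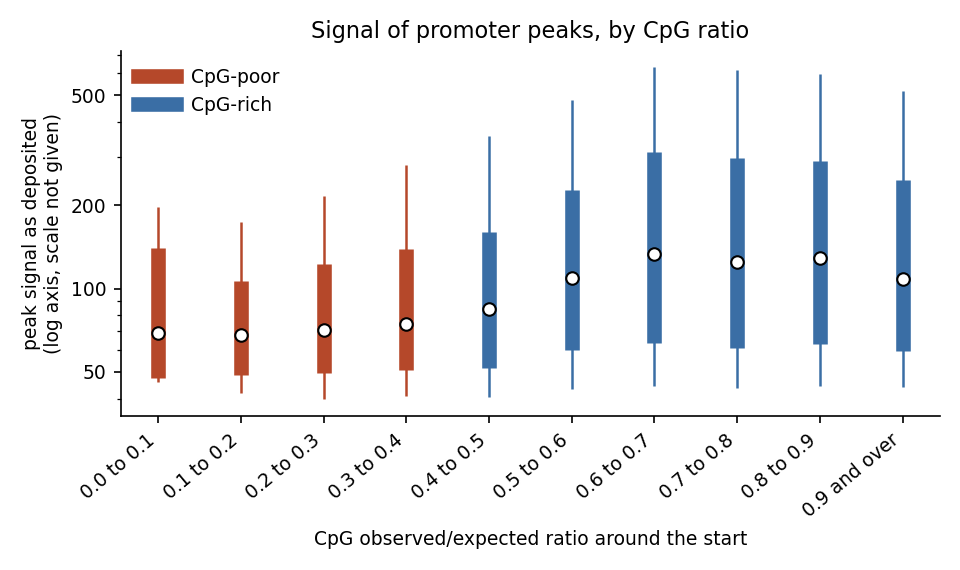
Deposited signal of promoter peaks (vertical log axis, scale not given) in bins of the CpG ratio at the nearest start; circles are medians, thick bars the quartiles and thin lines the 10th to 90th percentiles. The medians of the 4 CpG-poor bins lie between 68.2 and 74.7, and those of the CpG-rich bins between 84.1 and 133.

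The strongest CpG-poor peaks lay at genes of several kinds, and 11 of them are named here. The first was at Aloxe3, a lipoxygenase of the skin barrier, with a signal of 1852 at chr11:68938528-68938899, 664 bp before the nearest GENCODE M1 start. The window around that summit had a ratio of 0.616, above the threshold that the start's own window was under. Of the 11, 3 were at zinc finger protein genes: Zfp458 (809), Zfp120 (761) and Zfp953 (682). The others were Opn1sw, the short-wave cone opsin (791), Ccdc88b, a coiled-coil protein of lymphocytes and myeloid cells (745), B230307C23Rik (695), Pgs1, an enzyme of cardiolipin synthesis (692), Irak2, a kinase of the Toll-like receptor pathway (577), Bank1, a B-cell scaffold protein (558), and Nat2, an N-acetyltransferase (557). The Pgs1 summit lay 558 bp after its nearest protein-coding start, nearer to the start of a transcript of another type, and its own window had a ratio of 0.721.

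In the replicates' own lists on the mm10 build, joined by gene symbol, 10 of these 11 genes had an entry within 1 kb of a start among the strongest 29086 of both. Aloxe3 had signals of 198 and 240 in replicates 1 and 2, Ccdc88b 173 and 230, Bank1 132 and 188, and Irak2 32.0 and 40.8. The scale and depth of the replicates' lists are not given, so the values are not compared between the lists, and their entry can be another summit of the same promoter: Irak2 had 3 CpG-poor peaks in the mm9 list, with signals of 577, 103 and 38.9. No entry near Opn1sw was found in either replicate's list.

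Zinc finger genes named Zfp had 19 of the CpG-poor peaks (2.45%), against 208 of the CpG-rich peaks (2.70%), so they were about as common in both classes. On chromosome 13 there were 10 of the 19, where the ratios ran from 0.312 up to the threshold and the median signal was 261. The strongest of these were Zfp458, Zfp953 and Zfp457 (414). GGAAGT lay within 50 bp of the summit in 8 of the 19. These genes are close copies of one another, so reads may be shared between them.

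CpG-poor genes of immune lists were bound more often than CpG-poor genes as a whole. These lists were chosen with earlier results of these data known. Lists of genes of B cells, leukocytes and innate immunity, 10 lists with 232 different genes, had 143 genes whose starts were all CpG-poor, and 81 of these (56.6%, 48.1 to 64.9%) were bound. The share over all CpG-poor genes was 5.81%, and among CpG-poor genes outside these lists it was 395 of 7974 (4.95%). The CpG-rich genes of the same lists were bound in 32 of 51 cases, beside 53.7% of all CpG-rich genes. Of the 777 CpG-poor peaks, 127 lay at genes of the immune lists. Of the 31 proteasome and 27 spliceosome genes none had CpG-poor starts alone, and 7 and 4 of them had starts of both kinds.

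**Figure D3:**
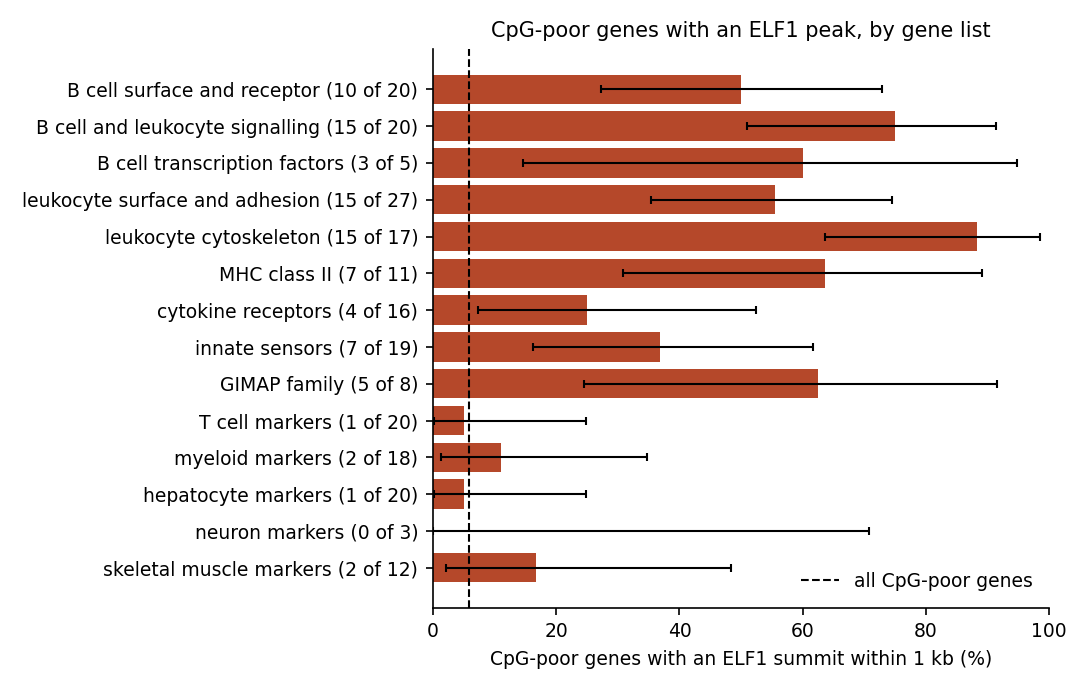
Share of each list's CpG-poor genes (all starts below a ratio of 0.4) with an ELF1 summit within 1 kb (horizontal axis, %), with exact binomial 95% intervals; the dashed line is the 5.81% of all CpG-poor genes. The 9 immune lists with CpG-poor genes lie between 25% and 88.2%, and the T cell, myeloid, hepatocyte, neuron and skeletal muscle lists between 0 and 16.7%.

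Genes of the leukocyte cytoskeleton had the highest share, 15 of 17 CpG-poor genes (88.2%, 63.6 to 98.5%). Hcls1, a cortactin-like actin regulator of blood cells, had a signal of 538 with its summit 30 bp before the start. Dock2, a Rac activator that lymphocytes need to migrate, had 501 at 646 bp after the nearest start. Myo1g, a class I myosin of blood cells, had 437, and Nckap1l, the blood-cell subunit of the WAVE actin complex, had 413. Arhgap30, a GTPase-activating protein, had 270, and Was, the Wiskott-Aldrich actin nucleation factor, had 202. These 6 genes were all seen in both replicates: the signals were 130 and 152 for Hcls1, 142 and 155 for Dock2, 137 and 137 for Myo1g, 110 and 152 for Nckap1l, 95.9 and 97.5 for Arhgap30 and 47.1 and 82.8 for Was in replicates 1 and 2. Myo1f and Tagap were the unbound CpG-poor members.

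Signalling proteins of B cells and other leukocytes were bound at 15 of 20 CpG-poor genes (75%, 50.9 to 91.3%). Among the bound genes, Rasal3 had no CpG-poor peak of its own, since the summit near it was nearer to a start of another gene. Bank1 was the strongest, followed by Inpp5d, the phosphatase SHIP1 that limits B-cell receptor signals, with 337, and Rac2, the blood-cell Rac GTPase, with 123. Ptpn6, the phosphatase SHP-1, had 104, Vav1, a guanine exchange factor below antigen receptors, 79.4, and Dok3, an adaptor of B cells, 74.3. Inpp5d had signals of 102 and 128 in replicates 1 and 2, and Ptpn6 14.9 and 25.5. The kinase gene Btk had no promoter peak.

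Of the B-cell surface genes, 10 of 20 CpG-poor members (50%, 27.2 to 72.8%) were bound. Both signalling chains of the B-cell receptor were among them. Cd79b had a signal of 376 at 723 bp after the nearest start, with 106 and 153 in replicates 1 and 2. Cd79a had 116 at 45 bp after its start, with 42.1 and 49.7. Cd37, a tetraspanin, had 259, Cr2, the complement receptor, 125, Ms4a1, which encodes CD20, 72.2, and Tnfrsf13b, the receptor TACI, 69.9. Cd22, Cd38, Fcer2a, Fcgr2b and Fcrl5 had no promoter peak. A peak list does not measure RNA, so it does not show which of these genes the line expresses.

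Among B-cell transcription factors most genes had a CpG-rich start. Of 5 with CpG-poor starts alone, 3 were bound: Spi1, which encodes PU.1 (signal 235), Spib, its closest relative (133), and Batf, an AP-1 family member (125). Spi1 had 63.6 and 100.9 in replicates 1 and 2, and Spib 49.4 and 61.8. The summits of Spi1 and Spib lay 682 and 605 bp after the nearest start. Spi1 had a second CpG-poor peak, with a signal of 158 and a summit 136 bp before another of its starts, and CAGGAAGT lay within 50 bp of that summit. Irf4 and Pou2af1 were unbound. Pou2f2, which encodes Oct-2 (91.7), Runx1 (90.5) and Ikzf1, which encodes Ikaros (85.2), had a CpG-poor peak and a CpG-rich start as well. Pax5, whose starts are CpG-rich, had no summit within 1 kb, and Ebf1, also CpG-rich, had one.

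Leukocyte surface and adhesion genes were bound at 15 of 27 CpG-poor members (55.6%, 35.3 to 74.5%). The strongest were Cd48, a ligand of the SLAM family (258), Laptm5, a lysosomal protein of blood cells (256), Itgb2, the shared beta chain of the leukocyte integrins (242), Ly9, another SLAM member (165), Evi2b (123) and Ptprc, which encodes CD45 (116). Itgb2 had 77.6 and 95.05 in replicates 1 and 2, and Ptprc 36.1 and 48.8. Of the GIMAP GTPases, a gene cluster of lymphocytes, 5 of 8 were bound: Gimap1 (240), Gimap8 (156), Gimap6 (141), Gimap5 (73.7) and Gimap9 (53.9). The GIMAP genes neighbour and resemble each other, so they are not 8 independent cases.

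The class II antigen presentation genes were all CpG-poor, and 7 of 11 were bound (63.6%, 30.8 to 89.1%), with a median signal of 66.3 beside 70.9 for the class. They were H2-DMb2 (98.9), H2-DMa (81.5) and H2-DMb1 (68.2), the chains of the peptide loader, Cd74, the invariant chain (66.3), H2-Oa (55.8), Ciita, the master coactivator of the class (53.7), and H2-Eb1, a chain of the presenting molecule. The H2-Eb1 summit lay 961 bp before its nearest start. The other presenting chains H2-Aa and H2-Ab1 were not bound. Ciita was not among the strongest entries of either replicate, where its signals were 4.64 and 3.56. Class I and peptide loading genes had no gene with CpG-poor starts alone: Tap2, with starts of both kinds, had a CpG-poor peak (50.8), and a CpG-rich start lay within 1 kb of it.

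Cytokine and chemokine receptors were bound at 4 of 16 CpG-poor genes (25%, 7.27 to 52.4%), the lowest share of the immune lists. These were Ccr7, the lymph node homing receptor (162), Il2rb (129), Cxcr5, the follicle homing receptor (78.5), and Il12rb1 (53.4). Il2rb, with 11.6 and 10.3, was among the strongest entries of replicate 1 only. Il15ra (36.7) had a CpG-rich start as well. Innate sensors and their partners were bound at 7 of 19 (36.8%, 16.3 to 61.6%), with Pycard, the inflammasome adaptor (268), Tlr4, the endotoxin receptor (229), Aim2, a cytosolic DNA sensor (204), Ifi30 (69.9), Unc93b1 (54.9) and Tlr9, the receptor of unmethylated CpG DNA (48.8).

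Marker lists of other cells had few bound CpG-poor genes, and their intervals all include the background of 5.81%. Of T cell markers 1 of 20 CpG-poor genes was bound, Cd5 (89.96), which some B cells also carry. Of myeloid markers 2 of 18 were bound, Cd68 (110) and Cebpe (61.3), and 3 of the 20 genes of that list are also in an immune list. Hepatocyte markers had 1 of 20, Apob (43.8) with a summit 973 bp after its start, neuron markers 0 of 3, and skeletal muscle markers 2 of 12, Tnni2 (89.1) and Actn3. The summit near Actn3 was nearer to a start of another gene, so Actn3 had no CpG-poor peak of its own. With lists of this size the intervals reach 24.9% for T cell and hepatocyte markers and 48.4% for muscle.

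The ETS word was more frequent at CpG-poor than at CpG-rich summits, and its form differed. GGAAGT lay within 50 bp of the summit, on either strand, in 370 of 777 CpG-poor peaks (47.6%, 44.1 to 51.2%) and in 2482 of 7716 CpG-rich peaks (32.2%, 31.1 to 33.2%), with an odds ratio of 1.92 and p = 2.48e-17 by the two-sided Fisher's exact test. The form AGGAAGT was in 36.3% of CpG-poor and 9.25% of CpG-rich peaks (odds ratio 5.59, Fisher's exact test, adjusted p = 1.50e-79). Both 8-base forms within it that were searched, CAGGAAGT (18.02% against 4.98%, odds ratio 4.20) and GAGGAAGT (13.9% against 2.44%, odds ratio 6.46), were both more frequent in CpG-poor peaks, with adjusted p-values of 2.08e-33 and 7.47e-39. The adjusted values are from Fisher's exact tests with Benjamini-Hochberg correction over 24 words. CCGGAAGT was in 2.96% of CpG-poor and 12.7% of CpG-rich peaks. This last word holds a CpG, so its lower share is tied to the rule that chose the class.

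**Figure D4:**
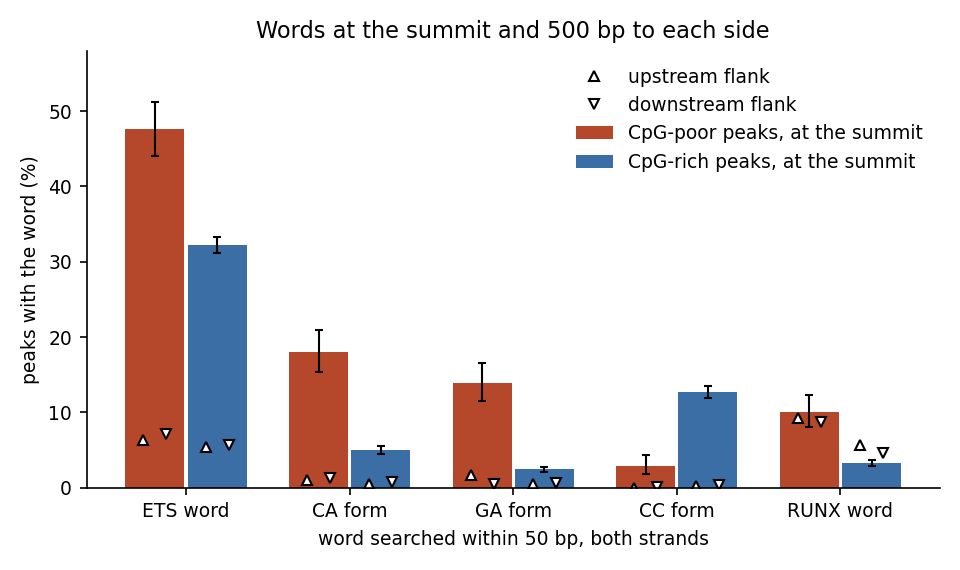
Share of peaks (vertical axis, %) with each word within 50 bp of the summit, in CpG-poor peaks (left bars) and CpG-rich peaks (right bars), with exact binomial 95% intervals; triangles are the shares in windows of the same length 500 bp upstream and downstream. The ETS word is GGAAGT, its CA, GA and CC forms are CAGGAAGT, GAGGAAGT and CCGGAAGT, and the RUNX word is TGTGGT; the ETS word is in 47.6% of CpG-poor and 32.2% of CpG-rich summits, and its flanks stay between 5.46% and 7.08%.

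The word was concentrated at the summit. In windows of the same length 500 bp upstream and downstream of CpG-poor summits GGAAGT was in 6.31% and 7.08%. Of the peaks that differed, 343 had it at the summit alone and 22 in the upstream flank alone (exact McNemar test, p = 3.11e-75), and 346 and 31 for the downstream flank (p = 1.79e-68). At CpG-rich peaks the flanks held it in 5.46% and 5.65%. The flanks held AGGAAGT in 3.99% and 3.604% at CpG-poor peaks and in 1.87% and 2.06% at CpG-rich peaks, so its background was higher at CpG-poor peaks, a difference that was not tested. Leaving out words preceded by CC, GGAAGT was at 45.2% of CpG-poor and 21.5% of CpG-rich summits (odds ratio 3.004, p = 1.32e-43, Fisher's exact test). This odds ratio is tied to the rule as well. The words left out were 36.8% of those at CpG-rich summits and 5.49% of those at CpG-poor summits. Words after GC, AC and TC, which also hold a CpG, were kept.

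Counted by occurrence, the CpG-poor windows held 419 GGAAGT words with both preceding bases in the window. Of these 35.6% followed CA, 26.5% GA, 8.11% AA and 5.49% CC. Of the 2848 in CpG-rich windows, 13.7% followed CA, 6.60% GA, 3.72% AA and 36.8% CC. Words after GC, AC and TC were 5.49%, 2.86% and 1.19% in CpG-poor windows, against 17.8%, 4.95% and 1.86%. All words with C before GGAAGT hold a CpG, so their lower shares are tied to the rule that chose the class. These are shares of all words, so the higher shares after CA, GA and AA are tied to it too. Shares among words without a CpG were not compared. A second word was uncommon, since 47 CpG-poor peaks (6.05%) and 367 CpG-rich peaks (4.76%) held at least 2. The bare core GGAA was absent from 35 CpG-poor windows (4.50%) and from 773 CpG-rich windows (10.02%).

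The share with AGGAAGT was lower in each successive bin of the CpG ratio within the CpG-poor class. It was 17 of 27 peaks (63.0%) below a ratio of 0.1, 42.9% of 205 at 0.1 to 0.2, 37.3% of 260 at 0.2 to 0.3 and 28.1% of 285 at 0.3 to 0.4. Among CpG-rich peaks it was 18.6% at 0.4 to 0.5 and 6.87% at 0.9 and over. These shares are given as a description, without a test.

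Peaks with the word were stronger within the class. CpG-poor peaks with GGAAGT had a median signal of 85.0 and those without it 62.8, and 216 of 370 (58.4%) against 172 of 407 (42.3%) lay above the median of the class (odds ratio 1.92, p = 8.21e-06, two-sided Fisher's exact test). Among CpG-rich peaks the medians were 212 with and 93.3 without the word. By form, the CpG-poor medians were 99.5 with CAGGAAGT, 78.9 with GAGGAAGT and 81.1 in the 23 peaks with CCGGAAGT, and CCGGAAGT had the highest CpG-rich median, 288. Several strong CpG-poor peaks lacked GGAAGT within 50 bp, among them Aloxe3, Opn1sw, Zfp120, Bank1 and Nckap1l.

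Whether a CpG-poor start had the word just before it went with ELF1 there. In the 100 bases before the start, on either strand, GGAAGT was present at 318 of 1255 CpG-poor starts with a summit within 1 kb (25.3%, 22.95 to 27.8%) and at 1394 of 17485 without one (7.97%, 7.58 to 8.38%). For AGGAAGT the shares were 16.3% and 3.67%. At CpG-rich starts with a summit GGAAGT was present in 17.1% and AGGAAGT in 3.61%, against 5.40% and 1.64% at those without one. Over all 45973 starts of these 4 groups GGAAGT was present in 10.7%. Neighbouring starts of a gene share bases, so the intervals are too narrow.

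The promoters of Hcls1 and Inpp5d, the strongest immune-list peaks within 50 bp of their start whose preceding 100 bases overlap no annotated untranslated region, are printed on the gene's strand, with each GGAAGT or its complement ACTTCC in capitals.
Hcls1, chr16:36934969-36935068, + strand: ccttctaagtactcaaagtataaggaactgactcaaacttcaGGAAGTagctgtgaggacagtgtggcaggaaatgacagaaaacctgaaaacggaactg
Inpp5d, chr1:89516787-89516886, + strand: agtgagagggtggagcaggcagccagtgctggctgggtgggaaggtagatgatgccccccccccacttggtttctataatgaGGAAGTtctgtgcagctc
Each holds 1 such word in this stretch. The Hcls1 word follows CA and the Inpp5d word follows GA, and Inpp5d has a further word, after CA, 34 bp behind its start.

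In both classes the word lay mostly around the start. At CpG-poor peaks with GGAAGT the word nearest the summit had a median position of 22.5 bp before the start, against 16.0 bp before it at CpG-rich peaks. Of CpG-poor words 147 of 370 (39.7%) and of CpG-rich words 987 of 2482 (39.8%) lay in the 100 bp before the start (odds ratio 0.998, p = 1, two-sided Fisher's exact test). The word read in the gene's direction in 193 of 370 CpG-poor peaks (52.2%, 46.9 to 57.4%) and in 53.9% of CpG-rich peaks (p = 0.539, Fisher's exact test). Both of these tests were chosen after the data were seen. In the first 25 bp after the start lay 8.38% of the CpG-poor and 15.8% of the CpG-rich words, a difference seen in the plot and not tested.

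**Figure D5:**
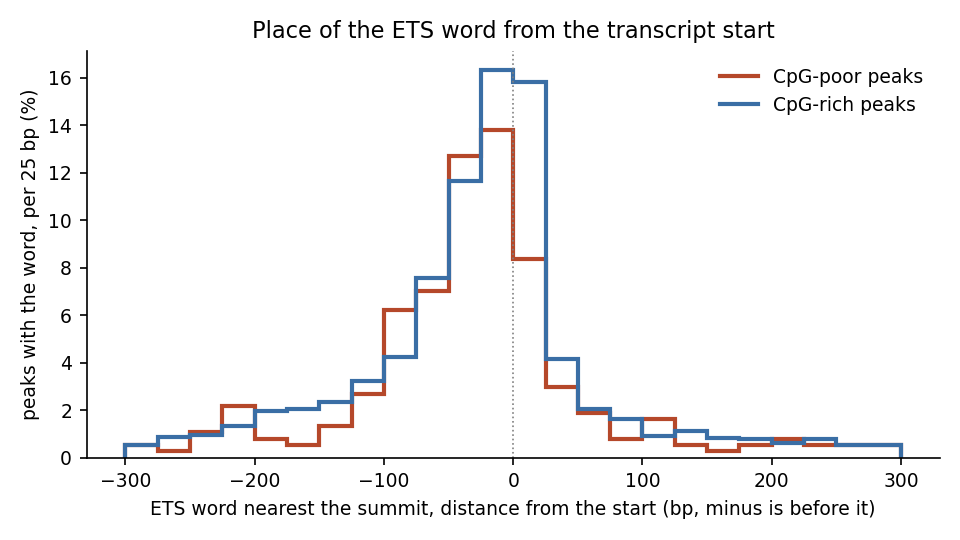
Position of the GGAAGT word nearest the summit relative to the nearest transcript start (horizontal axis, bp, in the gene's direction), as the share of peaks with the word per 25 bp (vertical axis, %), for 370 CpG-poor and 2482 CpG-rich peaks. Both curves peak in the 25 bp before the start, at 13.8% and 16.3%.

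CpG-poor summits lay farther from the start. The median distance was 94 bp at CpG-poor and 65 bp at CpG-rich peaks, and 402 of 777 (51.7%, 48.2 to 55.3%) against 4730 of 7716 (61.3%, 60.2 to 62.4%) were within 100 bp (odds ratio 0.677, p = 2.89e-07, two-sided Fisher's exact test). Among peaks within 500 bp of the start the odds ratio was 0.964 (p = 0.684, Fisher's exact test), so the call rests on the peaks beyond 500 bp. CpG-poor peaks within 100 bp had a median signal of 85.8 and those farther away 61.7. GGAAGT was in 50.5% of the near and 44.5% of the far CpG-poor summits. TATAAA, the core promoter word of many tissue-specific genes, began 40 to 20 bp before the start on the gene's strand in 8 of 777 CpG-poor peaks (1.03%) and 35 of 7716 CpG-rich peaks (0.454%), which did not pass the threshold (p = 0.0547, two-sided Fisher's exact test).

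Words of other factors were compared in the same way, and few stood above the flanks. The ETS-IRF composite GGAANTGAA was in 4.12% of CpG-poor and 1.35% of CpG-rich summits (Fisher's exact test, adjusted p = 9.67e-07), and in 1.03% and 0.772% of the CpG-poor flanks (exact McNemar test, adjusted p = 5.47e-04 and 7.79e-05). This composite, at which PU.1 or SpiB binds with IRF4 or IRF8, itself contains the core GGAA. The octamer ATGCAAAT, bound by Oct-1 and Oct-2, was in 2.06% of CpG-poor and 0.492% of CpG-rich summits (Fisher's exact test, adjusted p = 3.13e-05), against 0.515% and 0.901% of the CpG-poor flanks. Its exact McNemar test passed for the upstream flank (adjusted p = 0.0299) and not for the downstream one (0.166). The EBF word CCCNNGGGA was in 3.22% of CpG-poor and 2.77% of CpG-rich summits (Fisher's exact test, adjusted p = 0.515). The CpG-poor flanks held the EBF word in 1.29% upstream and 2.83% downstream (exact McNemar test, adjusted p = 0.0400 and 0.841).

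The RUNX word TGTGGT was in 10.04% of CpG-poor and 3.28% of CpG-rich summits (Fisher's exact test, adjusted p = 4.11e-15), yet the CpG-poor flanks held it in 9.27% and 8.75% (exact McNemar test, adjusted p = 0.746 and 0.564). The AP-1 word TGANTCA likewise differed between the classes, 4.38% against 1.09%, with 3.47% and 2.19% in the CpG-poor flanks, neither test passing. The GATA word AGATAA was less frequent at CpG-poor summits, 2.06%, than in their flanks, 5.02% on each side (exact McNemar test, adjusted p = 7.11e-03 for both). CpG-rich summits were also below their flanks, 1.04% against 4.46% and 3.19%, which was not tested. Between the classes the word was more frequent at CpG-poor summits (odds ratio 2.01, Fisher's exact test, adjusted p = 0.0202). Words with a CpG were less frequent in CpG-poor peaks, to which the rule is tied: the GC box GGGCGG was in 13.4% and 38.5%, although at CpG-poor summits it was above its flanks, 3.604% on each side (exact McNemar test, adjusted p = 1.28e-11 and 8.69e-12). AAGATGGCG, a YY1 word, was in 0 of 777 CpG-poor peaks and in 1.46% of CpG-rich peaks.

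The same features are given for the immune-list members and the others. The 127 CpG-poor peaks at immune-list genes had a median signal of 73.7, GGAAGT in 51.2%, GAGGAAGT in 18.1% and a summit within 100 bp in 55.9%. For the 650 other CpG-poor peaks the values were 69.9, 46.9%, 13.1% and 50.9%. No test was run on these differences.

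Many of the genes had more than 1 start. The 777 peaks lay at 670 genes, 96 of which (14.3%) had at least 2 CpG-poor peaks. Of the 670 genes 221 (33.0%) also had a start at a ratio of 0.4 or more, and 119 of these 221 (53.8%) had a CpG-rich peak as well. For 38 CpG-poor peaks (4.89%) a CpG-rich start lay within 1 kb of the summit, and in 47 (6.05%) the window around the summit itself reached 0.4. In 80 (10.3%) the start of a transcript of another type was nearer than the protein-coding one. Chromosome 11 held 107 CpG-poor peaks (13.8%) and 832 CpG-rich peaks (10.8%).

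The replicates recovered most of the class, but less of it than of CpG-rich promoters. For this the genes at CpG-poor peaks alone (551) and at CpG-rich peaks alone (6610) were looked up by symbol, and 533 and 6535 were found on GRCm38. An entry among the strongest 29086 of both replicates lay within 1 kb of a start for 419 of 533 CpG-poor genes (78.6%, 74.9 to 82.0%) and for 6205 of 6535 CpG-rich genes (94.95%, 94.4 to 95.5%), with an odds ratio of 0.195 and p = 1.58e-34 by the two-sided Fisher's exact test. The odds ratio was 0.315 among the strongest 15000 entries and 0.122 for the stronger 50% of the mm9 list, a setting chosen after seeing the data. In replicate 1 alone the shares were 81.8% and 95.7%, and in replicate 2 they were 83.1% and 96.8%. Of the CpG-poor genes 17 were found in replicate 1 only, 24 in replicate 2 only and 73 in neither. The mm9 list was itself made from these replicates, so recovery in them is not independent evidence. The shares of all CpG-poor and all CpG-rich genes with such an entry are not given, so recovery has no background beside it. Of the immune-list genes at CpG-poor peaks alone, 79 of 86 (91.9%) were found in both.

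Where both replicates had an entry, their order was similar. The 419 CpG-poor genes had a median signal of 30.2 in replicate 1 and 40.4 in replicate 2, against 49.9 and 66.5 for the 6205 CpG-rich genes, so the class was lower in each replicate. The Spearman correlation between the replicates was 0.845 across CpG-poor and 0.939 across CpG-rich genes, as a description across genes, which share the 2 libraries and their unknown depth.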

How the data were processed

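ELF1 ChIP-seq of CH12.LX cells was analysed from the deposited peak lists, for 2 biological replicates that form 1 group. Per the deposited README text, each replicate's relaxed mm10 list was made by the authors from its alignments and a control, the optimal and conservative lists from the relaxed lists by the irreproducible discovery rate, and the mm9 list from both replicates' mm9 alignments. The aligner is not given in the sources used here, nor is the peak caller. The deposited signal of each peak is the caller's own value, its scale is not given, so tests used only ranks within a list, and the replicates' values are given side by side as a description. Read depth is unknown, so intervals cover counting error only.

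The members, gene lists and words were chosen with earlier results of these data known. Summits of the mm9 list were set against 45974 unique GENCODE M1 protein-coding starts and the NCBIM37 (mm9) sequence. The CpG ratio was taken 500 bp to each side of the start. Words were searched, on either strand, up to 50 bp from each summit and in like windows 500 bp upstream and downstream in the gene's direction; words overlap, so a long word can contain a shorter one. Shares were compared by two-sided Fisher's exact tests, and summits with flanks by exact McNemar tests, with Benjamini-Hochberg adjustment over 24 words (over both flanks for McNemar) and a threshold of 0.05. Intervals are exact (Clopper-Pearson, 95%). The mm10 lists were joined by gene symbol to RefSeq GRCm38.p6 starts, with the strand taken from GENCODE M1 for 20338 of 21900 genes. No coordinates were converted, and no mm10 sequence was used. Of 396 list entries 395 matched, 5 by synonym; Nlrc5 did not. Scripts used Python 3.11.15, numpy 2.4.6, pandas 2.3.3, scipy 1.17.1, pysam 0.24.0 and samtools 1.23.1, and were tested on simulated sequences and counts.

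The genes named were the 12 CpG-poor peaks of highest signal, up to 6 members of each list with the strongest CpG-poor peak, up to 8 unbound members of the B-cell lists in alphabetical order and the 3 peaks on each side of the threshold. Some of these are not reported here. Other genes named were chosen after their values were seen, among them the weaker zinc finger genes, Actn3, H2-Eb1 and unbound genes outside the B-cell lists. Alternatives covered the CpG threshold and window, the distance to the start, the word window, the stronger 50% of the list, each replicate alone, the deposited optimal and conservative lists, and peaks with no CpG-rich start nearby. Added after seeing the data were the summit's own ratio, leaving out chromosome 11, 1 peak per gene, and, for recovery in the replicates, the stronger 50% of the list.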

Additional observations from a re-analysis of the deposited data

How the results depend on the processing

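For 14 results 125 values were recomputed under the alternatives, and 124 were taken as unchanged. For ratios this means that direction and side of the threshold were kept. The count of other words given below has no p-value, and was taken as unchanged although it moved between 13 and 16. The exception was the share of summits within 100 bp of the start. Among peaks within 500 bp, a setting that leaves out the farther peaks, its odds ratio was 0.964. Across alternatives, the odds ratios of CpG-poor against CpG-rich ran from 0.326 to 0.419 for the signal, from 1.71 to 2.09 for GGAAGT, from 2.58 to 3.40 for GGAAGT not after CC, from 0.116 to 0.295 for CCGGAAGT and from 0.0446 to 0.0640 for bound genes. For GGAA it ran from 1.36 with a window of 25 bp to 6.58 with 100 bp. The ratio of summit-only to flank-only peaks for GGAAGT ran from 7.98 to 24.5 upstream and from 7.36 to 13.3 downstream. Recovery in the replicates had odds ratios of 0.163 and 0.204 when 1 replicate was left out in turn, 0.315 among the strongest 15000 entries and 0.122 for the stronger 50% of the mm9 list, a setting added after seeing the data. Of the 24 words searched, 15 without a CpG were more frequent in CpG-poor peaks, 13 with the 25 bp and 16 with the 100 bp window. These 15 were most of the words without a CpG. Among them was the RUNX word, whose tests against the flanks did not pass. CCAAT, also without a CpG, was in 11.8% of CpG-poor and 17.4% of CpG-rich peaks (Fisher's exact test, adjusted p = 7.38e-05). No paired analysis was possible because the 2 replicates form 1 group. Read depth, the scale of the signal and the caller's settings were unknown, the mm9 list pools the replicates, and alternative starts missing from the annotation would put a peak in the wrong class.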
